A study of Mus musculus with 19 samples.

Results

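The BCL2 family was followed as 10 genes of the deposited count table, taken by symbol. They were the 6 BH3-only genes BCL2L11, BBC3, PMAIP1, BMF, BIK and BID, the 2 effectors BAX and BAK1, and the 2 anti-apoptotic genes BCL2L1 and MCL1. All 10 were found among the 31276 genes of the table and all 10 passed the filter on low counts, which left 16704 genes to test. The table names genes by human symbol only, so no positions are given.

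The family decides whether the outer membrane of the mitochondrion is opened, the step that releases cytochrome c and starts the caspases. Anti-apoptotic members hold the effectors in check, BH3-only members are the stress sensors that bind the anti-apoptotic members or activate the effectors directly, and the effectors form the pore. In lung cancer cells that depend on mutated EGFR, BIM, the product of BCL2L11, is known as the main mediator of death after EGFR inhibition, through loss of its ERK-driven turnover and repression. PUMA (BBC3) and NOXA (PMAIP1) are induced by DNA damage and by other kinds of stress.

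The sequenced tumours were xenografts of HCC827, a lung adenocarcinoma line of human origin that carries an activating EGFR mutation, in NCG mice, a host without functional lymphocytes. The 4 arms held 5 libraries of controls given DMSO and 4 of tumours given 6-thio-dG (called thio here). They also held 5 of tumours given osimertinib and 5 of tumours given osimertinib with 6-thio-dG (the combination). 6-thio-dG is a nucleoside that telomerase can build into telomeres, and osimertinib inhibits mutated EGFR. The labels used here hold no dose, schedule or animal age, nor do they tie a library to an animal, and a p value here measures the spread between these libraries, which may be technical. A single line stands for the tumour in all arms.

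Total counts per library ran from 17731752 to 35397346. The 8 markers of carcinoma epithelium were all present and summed to between 17101 and 27769 CPM (counts scaled to a fixed library total) in each library, while the 8 leukocyte markers summed to 7.03 to 21.0 CPM. The 10 fibroblast markers summed to 309.7 to 439.8 CPM under thio and 438.8 to 1041 CPM in control. Between these arms 4 of 9 tested were called, beside 13.9% of all tested genes. Under the combination they summed to 399.9 to 866.4 CPM, with 5 of 9 called against control. Of 5 tested endothelial markers 2 were called there (5.68 to 15.0 CPM in sum, against 6.07 to 7.79 CPM in control). Both counts stand beside 48.7% of all tested genes called in that comparison. The table holds human symbols while the host was the mouse, and the handling of host reads is not given. The fibroblast, endothelial and leukocyte sums are therefore no measure of host cells. The part of these markers in the results was not tested. The share of counts on mitochondrially encoded genes was 8.15% ± 0.835 (SD, n = 5) for control tumours and 6.45% ± 1.07 (n = 4) for thio tumours. It was 12.0% ± 3.42 (n = 5) after osimertinib and 18.6% ± 7.54 (n = 5) after both drugs. Two-sided exact permutation tests adjusted over 5 comparisons put this share above control under osimertinib and under the combination (adjusted p = 0.0397 each), with the highest share in combination 5 (30.2%). The table lists an antisense symbol, ADAMTSL4-AS1, with the same count as MCL1 in all 19 libraries, so the values given for MCL1 cannot be assigned to 1 of these symbols, and for BAK1 reads could be shared with a processed pseudogene.

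Levels are given as CPM scaled by TMM, a factor that removes differences in library composition, and in the order of the libraries. A gene was called changed at an adjusted p under 0.05 from edgeR's quasi-likelihood test, adjusted over all 16704 genes. Levels of different genes are not compared, since CPM does not account for length.

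**Figure D1:**
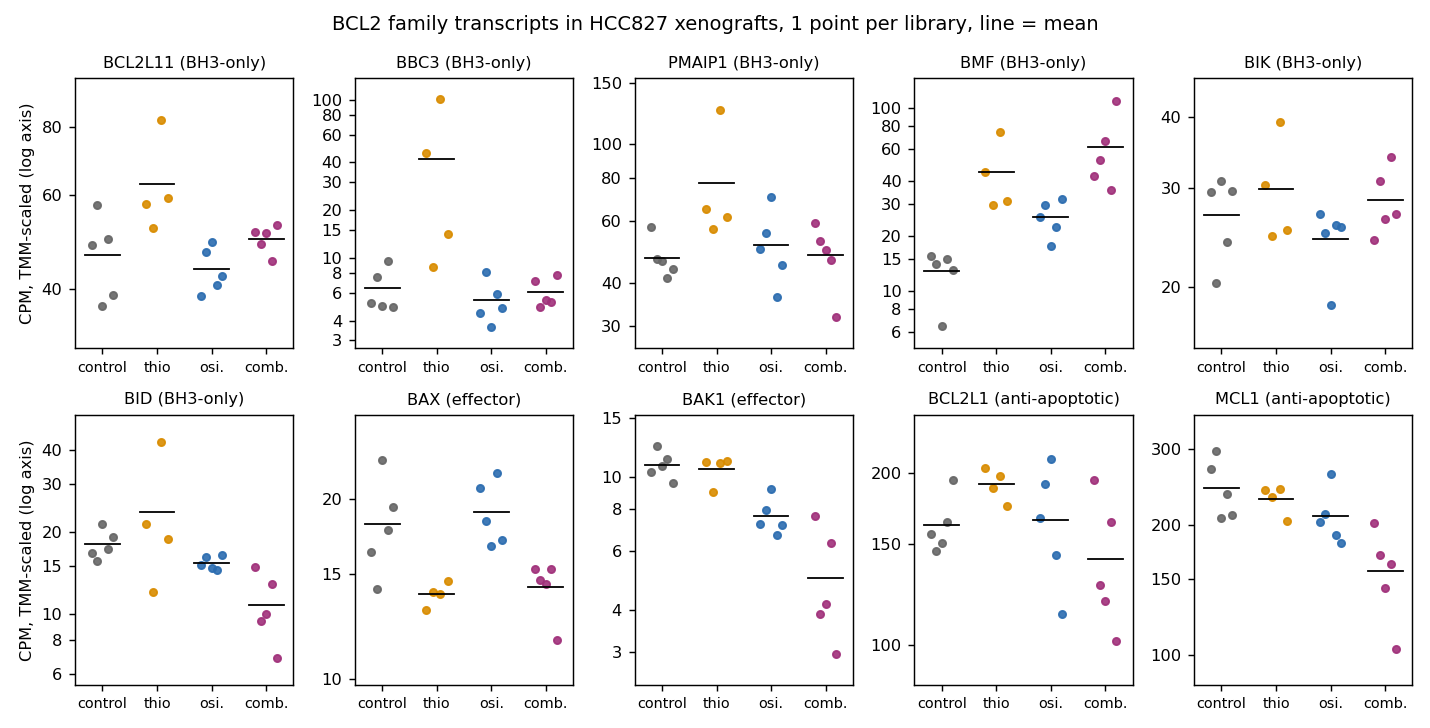
Level of each of the 10 genes (CPM, TMM-scaled, log axis) in every library of the 4 arms, with the arm's mean as a line. BMF rises from 12.8 CPM on average in control to 61.1 CPM in the combination, BBC3 is high in thio libraries 1 and 3, and BAK1 is lowest in the combination.

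Under thio 4 BH3-only genes rose (BBC3, BMF, PMAIP1 and BCL2L11) and no member fell, 4 of 10 called against 13.9% of all tested genes (9.27% higher and 4.63% lower). Without thio 3 there were 2 members called, and 736 genes in place of 2322. Under the combination BMF rose and 4 members fell (BID, BAX, BAK1 and MCL1), 5 of 10, which is close to the 48.7% called over all genes (25.7% higher and 23.1% lower). Under osimertinib alone edgeR called 0 of 10, against 4.16% of all genes (2.7% higher and 1.46% lower). At an unadjusted p under 0.05 there were 2 (BMF higher, BAK1 lower), and DESeq2 called 1 (BMF) and limma voom 2 (BMF and BAK1). The medians over the 10 genes were 0.32 log2 under thio, -0.14 under the combination and -0.12 under osimertinib, beside 0.01, 0.02 and 0.02 over all tested genes. In these bulk samples fewer cells of a type and less RNA per cell cannot be told apart.

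Adding 1 drug to the other was read from the same fit. Of the 10 members, 3 were called between the combination and osimertinib (BMF higher, BAX and BAK1 lower), against 15.8% of all genes (8.09% higher and 7.66% lower). Between the combination and thio 5 were called, all lower (BBC3, PMAIP1, BID, BAK1 and MCL1), against 44.2% of all genes (21.2% higher and 22.9% lower). The interaction, which asks whether the combination departs from the sum of the single effects on the log2 scale, was called for BBC3 alone, 1 of 10 against 3.45% of all genes (1.24% higher and 2.21% lower). The comparisons share arms, so their values are side by side and not independent.

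**Figure D2:**
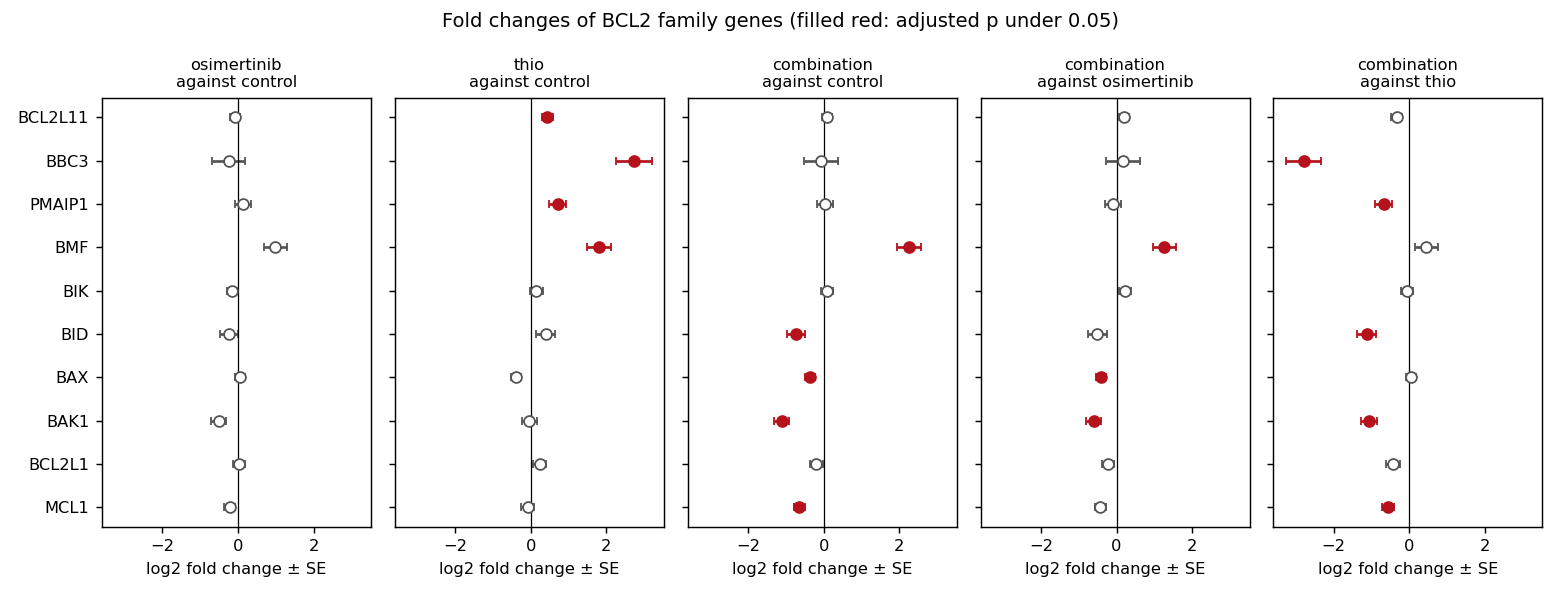
Log2 fold change ± SE of the 10 genes in 5 comparisons, with filled red points at an adjusted p under 0.05. Of the 6 BH3-only genes, 4 are filled under thio (0.44 to 2.72), while under the combination BMF (2.25) stands alone on the higher side.

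BMF encodes a BH3-only protein that in resting cells is tethered to the actin and myosin cytoskeleton and is freed by loss of attachment and other stress. It measured 15.5, 14.1, 6.47, 15.1 and 13.0 CPM in control and 25.4, 29.6, 17.6, 22.4 and 31.9 CPM under osimertinib. Under thio it measured 44.6, 29.4, 74.2 and 31.0 CPM, and under the combination 42.7, 51.7, 66.0, 35.8 and 109 CPM. Every treated library therefore lay above every control library, the arms ran in the order control, osimertinib, thio, combination, and neighbouring arms overlapped except control and osimertinib. Libraries that did not overlap made up 5.84% of genes under osimertinib, 12.5% under thio and 26.8% under the combination.

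BMF rose 3.50-fold under thio (log2 1.81 ± 0.32 SE, adjusted p = 0.00165, n = 4 and 5) and 4.76-fold under the combination (2.25 ± 0.31, adjusted p = 3.96e-05, n = 5 and 5), and both calls held without each single library. Under osimertinib it was 1.98-fold of control (0.99 ± 0.30) and missed the threshold (adjusted p = 0.0668). That value passed without thio 3 (adjusted p = 0.0367), osimertinib 3 (0.0488) or combination 5 (0.0379), and by DESeq2 (0.0246) and limma voom (0.0142). The combination exceeded osimertinib by 1.26 ± 0.30 (adjusted p = 0.0139), a call lost without combination 5 (0.96, adjusted p = 0.0565). It was 0.45 ± 0.31 above thio (adjusted p = 0.251), and it passed without thio 3 (0.78, adjusted p = 0.0489). The interaction was -0.54 ± 0.43 (adjusted p = 0.425). The libraries of the combination and osimertinib did not overlap for BMF, as for 8.57% of all genes.

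BBC3 encodes PUMA, which binds all of the main anti-apoptotic proteins. It measured 46.0, 8.72, 100.3 and 14.1 CPM in the 4 thio libraries, against 5.17, 7.53, 4.92, 9.48 and 4.84 CPM in control. Osimertinib libraries had 4.47, 8.15, 3.63, 5.93 and 4.77 CPM and combination libraries 7.10, 4.84, 5.41, 5.22 and 7.79 CPM. Thio 1 and thio 3 were high, thio 2 lay inside the control range, and the other 3 arms overlapped throughout. Relative to the control mean the thio libraries ran from 1.36-fold to 15.7-fold.

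The fitted BBC3 rise under thio was 6.60-fold (log2 2.72 ± 0.47, adjusted p = 0.00157) and 1.84 without thio 3 (adjusted p = 0.00984), still called. Under osimertinib BBC3 had -0.24 ± 0.44 (adjusted p = 0.814) and under the combination -0.08 ± 0.45 (adjusted p = 0.899). The combination was lower than thio, -2.80 ± 0.47 (adjusted p = 0.000191), with all libraries separate. Such separation held for 33.0% of all genes in that comparison. The interaction was -2.56 ± 0.64 (adjusted p = 0.0405) and was lost without any 1 of 12 libraries, -1.67 (adjusted p = 0.106) without thio 3 being the farthest. Over all genes that interaction count is itself unsteady, from 0 to 2157 called when single libraries are left out. The 12 libraries are control 1, 3 and 5, thio 1 and 3, osimertinib 1, 2 and 3, and combination 2, 3, 4 and 5.

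PMAIP1 encodes NOXA, a BH3-only protein that binds MCL1 and promotes its degradation. It measured 57.8, 46.7, 46.0, 41.1 and 43.7 CPM in control and 65.1, 56.9, 125 and 61.5 CPM under thio. Osimertinib libraries ran from 36.3 to 70.2 CPM and combination libraries from 31.9 to 59.2 CPM. Thio 3 was far above the other thio libraries, which touched the control range. The rise under thio, 0.71 ± 0.22 (adjusted p = 0.0346), was lost without thio 3 (0.38, adjusted p = 0.259), without control 3, 4 or 5 (0.0657 to 0.0726) and from the 2 groups alone (0.0791). Between the combination and thio PMAIP1 had -0.68 ± 0.22 (adjusted p = 0.0157), lost without thio 3 (-0.37, adjusted p = 0.125).

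BCL2L11, the gene of BIM, was not called under osimertinib or the combination. It measured 48.4, 57.5, 37.2, 49.6 and 39.1 CPM in control and 38.8, 47.0, 48.9, 40.7 and 42.4 CPM under osimertinib. Thio libraries had 57.6, 52.0, 82.5 and 59.3 CPM and combination libraries 51.1, 48.7, 50.9, 45.1 and 52.6 CPM. The osimertinib libraries sat inside the control range, and the log2 fold change was -0.09 ± 0.13 (adjusted p = 0.767). Under thio BCL2L11 rose by 0.44 ± 0.14 (adjusted p = 0.0408), a call lost without any 1 of 8 libraries (control 1, 3, 4 and 5, thio 1, 3 and 4, combination 2) and farthest without thio 3 (0.28, adjusted p = 0.223). It was also lost with upper-quartile scaling (adjusted p = 0.0562), by limma voom (0.0644), with no filter (0.0759) and from the 2 groups alone (0.120). Under the combination it had 0.10 ± 0.13 (adjusted p = 0.549). Between the combination and thio it had -0.34 ± 0.14 (adjusted p = 0.0542), which passed without control 2 or 3 or thio 1 or 2 (lowest adjusted p = 0.0244).

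BID links the death receptors to mitochondria once caspase-8 has cut it. It measured 16.7, 15.7, 21.5, 17.3 and 19.2 CPM in control and 14.9, 9.40, 9.98, 12.9 and 6.91 CPM in the combination, with no overlap between the arms. Thio libraries had 21.5, 12.0, 42.8 and 18.9 CPM and osimertinib libraries 14.6 to 16.5 CPM. BID fell under the combination, -0.73 ± 0.24 (adjusted p = 0.0171), and was lower there than under thio, -1.13 ± 0.25 (adjusted p = 0.00164). Under thio itself it had 0.39 ± 0.25 (adjusted p = 0.304), a value that turned to -0.05 without thio 3 (adjusted p = 0.911). The gap to thio held without each single library and was -0.49 (adjusted p = 0.0836) without combination 3, combination 5 and thio 3 together.

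BIK, a BH3-only protein of the endoplasmic reticulum, was called in no comparison. Its level was 26.8 ± 4.50 CPM (SD, n = 5) in control and 29.8 ± 6.78 CPM (n = 4) under thio. After osimertinib it was 24.3 ± 3.30 CPM (n = 5), and after both drugs 28.5 ± 3.91 CPM (n = 5). All 4 arms overlapped, and adjusted p ran from 0.284 to 0.851.

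**Figure D3:**
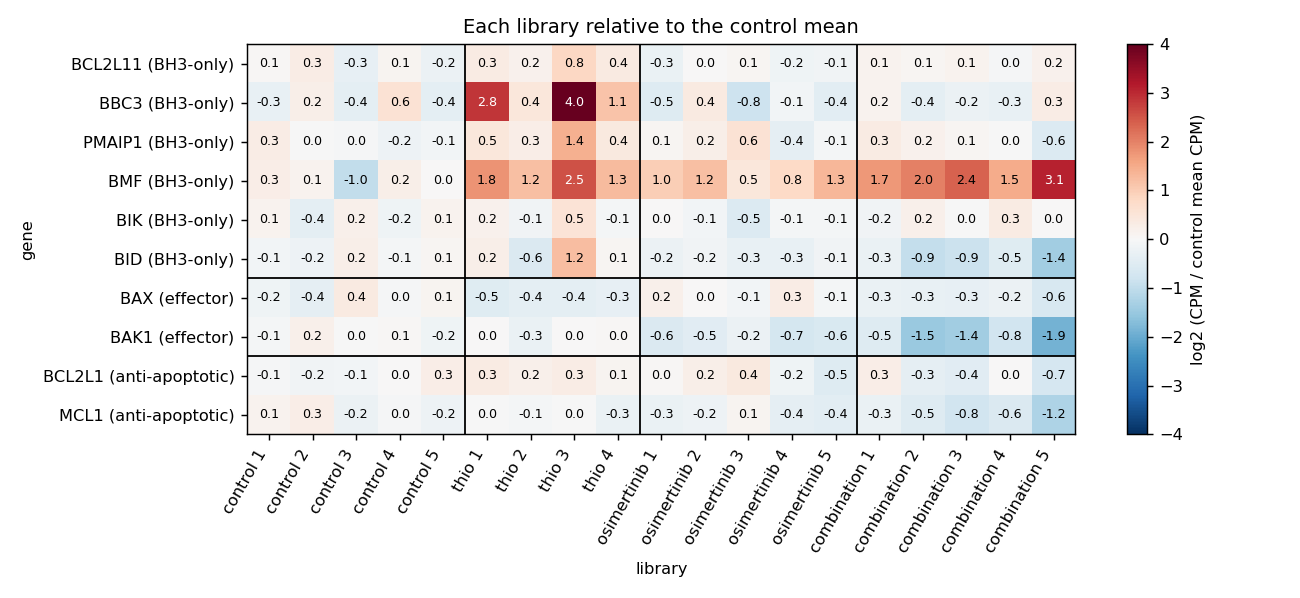
Log2 ratio of each library's CPM to the control mean, genes in rows by role and libraries in columns by arm, with the value written in each cell. BMF is positive in all 14 treated libraries, thio 3 has the highest value of all 6 BH3-only genes among the thio libraries, and combination 5 the lowest BID, BAX, BAK1 and MCL1 of all 19 libraries.

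Among the effectors, BAK1 encodes the pore former that sits in the outer membrane of mitochondria. It measured 10.3, 12.4, 10.8, 11.3 and 9.58 CPM in control, 11.1, 9.04, 11.0 and 11.2 CPM in thio and 7.23, 7.96, 9.21, 6.71 and 7.18 CPM in osimertinib. The combination had 7.63, 3.90, 4.17, 6.35 and 2.95 CPM. Osimertinib libraries all lay below control, combination libraries all lay below control and thio, and osimertinib and combination overlapped. Such separation held for 5.84% of all genes between osimertinib and control. For the combination it held for 26.8% against control and 33.0% against thio. BAK1 fell 2.16-fold under the combination (-1.11 ± 0.20, adjusted p = 0.000266) and was lower than under thio (-1.07 ± 0.20, adjusted p = 0.000503), and both held without each single library. Under osimertinib it had -0.51 ± 0.19 (adjusted p = 0.142). The step from osimertinib to the combination, -0.60 ± 0.19 (adjusted p = 0.0414), was lost without any 1 of 7 libraries (thio 1, osimertinib 1, 2 and 3, combination 2, 3 and 5; highest adjusted p = 0.121).

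BAX, the effector that moves from the cytosol to mitochondria when activated, measured 16.3, 14.2, 23.3, 17.8 and 19.4 CPM in control and 20.9, 18.4, 16.7, 22.2 and 17.1 CPM in osimertinib. Thio libraries had 13.0, 14.0, 13.9 and 14.6 CPM and combination libraries 15.3, 14.7, 14.4, 15.3 and 11.6 CPM. Both arms with thio thus sat at the bottom of the control range or under it. The combination lay wholly below osimertinib, as 1 of the 8.57% of all genes that did not overlap there. BAX fell under the combination, -0.35 ± 0.13 (adjusted p = 0.0323), lost without control 3 (-0.25, adjusted p = 0.118), control 5, combination 3 or combination 5, by limma voom (0.0601), with the stricter filter (0.0578) and from the 2 groups alone (0.0877). It was lower than in osimertinib by -0.42 ± 0.13 (adjusted p = 0.0375), lost without any 1 of 7 libraries (osimertinib 1 to 4, combination 2, 3 and 5; highest adjusted p = 0.126). With upper-quartile scaling these had adjusted p = 0.152 and 0.0880. Under thio it had -0.39 ± 0.14 (adjusted p = 0.0639), which passed without control 2 (0.0249) or combination 5 (0.0452). BAX also passed there with upper-quartile scaling (0.0429), by DESeq2 (0.0402), by limma voom (0.0275) and with the mitochondrial share as a covariate (0.0363).

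MCL1, a short-lived anti-apoptotic protein that holds BIM and BAK, measured 269, 296, 207, 236 and 210.2 CPM in control and 241, 232, 242 and 204 CPM in thio. Osimertinib libraries had 202, 212, 262, 189 and 181 CPM and combination libraries 201, 171, 143, 162 and 103 CPM. Every combination library lay below every control and thio library, a separation seen for 26.8% of all genes against control and 33.0% against thio. MCL1 fell 1.56-fold under the combination (-0.64 ± 0.15, adjusted p = 0.00222) and was 0.56 ± 0.16 log2 units below thio (adjusted p = 0.00849), and both held without each single library. The difference from osimertinib was -0.42 ± 0.15 (adjusted p = 0.0598), which passed without osimertinib 5 (0.0470) or combination 1 (0.0148), by DESeq2 (0.0425) and by limma voom (0.0176). The value against thio was -0.34 (adjusted p = 0.119) without combination 3, combination 5 and thio 3 together.

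BCL2L1, whose main product BCL-XL is the other anti-apoptotic member, measured 162 ± 19.1 CPM (SD, n = 5) in control and 191 ± 12.5 CPM (n = 4) under thio. It averaged 165 ± 38.7 CPM (n = 5) after osimertinib and 141 ± 37.5 CPM (n = 5) after both drugs. Osimertinib libraries ran from 113 to 212 CPM and combination libraries from 102 to 195 CPM, across the whole control range. No comparison was called. The nearest was the combination against thio, -0.43 ± 0.18 (adjusted p = 0.0522), which passed without osimertinib 3, osimertinib 5, combination 1 or combination 4 (lowest adjusted p = 0.00905) and by DESeq2 (0.0446) and limma voom (0.0101). Gene counts do not separate its long and short splice forms, which act in opposite directions.

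The calls of the combination arm lay beside the mitochondrial share of its libraries. In the order of the combination libraries that share was 11.0, 17.8, 20.9, 13.2 and 30.2%. Combination 5 and combination 3, which had the highest shares, also had the highest BMF, and combination 5 had the lowest BID, BAX, BAK1 and MCL1. The share was higher in every combination library than in any control (7.04 to 9.29%) or thio library (5.27 to 7.86%). Against control or thio, a fit with it as a covariate therefore cannot tell the share apart from the treatment, whichever calls it keeps or loses. The shares overlapped between the combination and osimertinib (8.62 to 16.0%), where the permutation test gave adjusted p = 0.103, and between thio and control. The arms still differed in their average share there, and its part in those comparisons was not tested. With the share as a covariate 1 of the 5 calls against control was left, BMF at 1.47 (adjusted p = 0.0274). BAK1 had -0.51 (adjusted p = 0.103), BID -0.24 (adjusted p = 0.719), BAX -0.23 (adjusted p = 0.499) and MCL1 -0.17 (adjusted p = 0.536), and over all genes the fit with the covariate called 542, where the fit without it called 8139. Against thio no member was called with the covariate. MCL1 went from -0.56 to -0.01 (adjusted p = 0.981) and PMAIP1 from -0.68 to -0.02 (adjusted p = 0.978). BAK1 had -0.35 (adjusted p = 0.359), BID -0.52 (adjusted p = 0.462) and BBC3 -2.80 (adjusted p = 0.0789). Against osimertinib BMF had 0.73 (adjusted p = 0.389), BAX -0.35 (adjusted p = 0.397) and BAK1 -0.25 (adjusted p = 0.593), so no member was called there either. Under thio, where the share averaged below that of control, BBC3, BMF, PMAIP1 and BCL2L11 kept their calls with the covariate (highest adjusted p = 0.0329). BAX was called lower there as well, at -0.41 (adjusted p = 0.0363). Without combination 3, combination 5 and thio 3 together, BMF (1.75, adjusted p = 0.000206), BAK1 (-0.88, adjusted p = 0.00347), MCL1 (-0.46, adjusted p = 0.0218) and BID (-0.55, adjusted p = 0.0301) stayed called against control and BAX did not (adjusted p = 0.162).

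**Figure D4:**
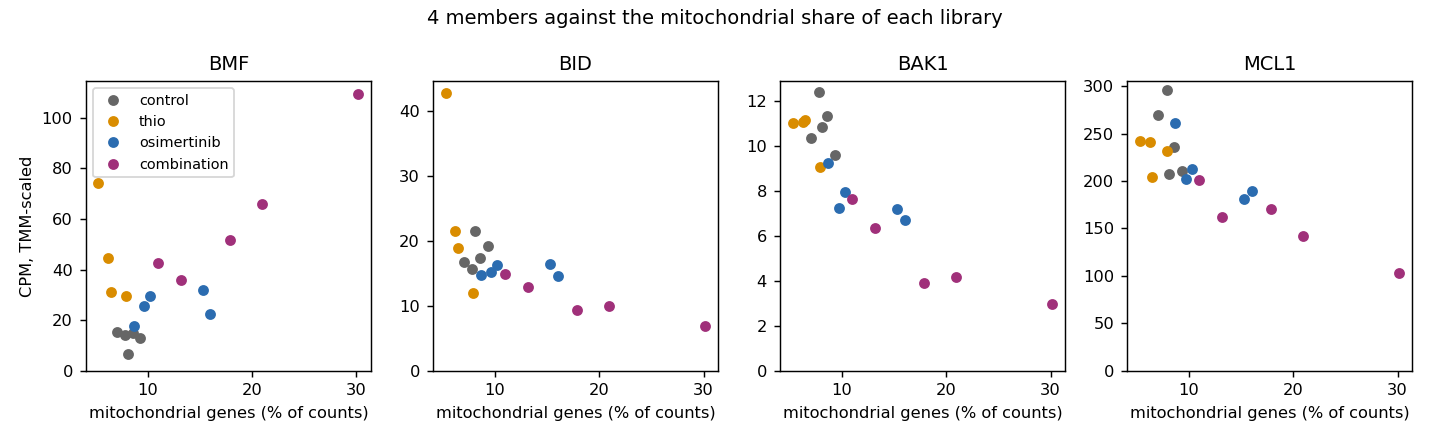
Levels of BMF, BID, BAK1 and MCL1 (CPM, TMM-scaled) in each library against the percent of counts in genes of the mitochondrial genome, coloured by arm. The combination libraries span 11.0 to 30.2% and hold the highest BMF (109 CPM) and the lowest BID, BAK1 and MCL1 at the high end, while the thio libraries have BMF of 29.4 to 74.2 CPM at shares of 5.27 to 7.86%.

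Pro-apoptotic and anti-apoptotic members were set against each other within each library as ratios of CPM, which do not depend on library scaling and were read only as changes between arms. The ratio of BMF to MCL1 was 0.0524 ± 0.0133 (SD, n = 5) in control and 0.125 ± 0.0392 (n = 5) after osimertinib. It was 0.193 ± 0.0800 (n = 4) under thio and 0.451 ± 0.354 (n = 5) after both drugs. Its lowest combination value (0.212) exceeded its highest control value (0.0639), and combination 5 reached 1.06. BCL2L11 to MCL1 ran from 0.179 to 0.210 in control, 0.187 to 0.234 in osimertinib, 0.224 to 0.341 in thio and 0.254 to 0.509 in the combination. In both thio-treated arms this ratio lay above every control library, in the combination with a BCL2L11 level near that of control and a lower MCL1. Set against BCL2L1 instead, BCL2L11 overlapped control in both, with 0.202 to 0.394 in control, 0.276 to 0.417 under thio and 0.262 to 0.518 after both drugs.

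Among the effectors, BAK1 to BCL2L1 averaged 0.0682 ± 0.0128 in control, 0.0554 ± 0.00640 under thio, 0.0477 ± 0.00893 after osimertinib and 0.0345 ± 0.00460 after both drugs, where every library lay below every control. BAX to BCL2L1 was lowest under thio, 0.0730 ± 0.00810 against 0.113 ± 0.0236 in control, again with no overlap. It was 0.121 ± 0.0332 after osimertinib and 0.104 ± 0.0179 after both drugs, both overlapping control. BAX to MCL1 was 0.0778 ± 0.0256 in control and 0.0940 ± 0.0141 after both drugs, also with overlap.

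As a summary of the classes, the mean log2 CPM of the 6 BH3-only genes minus that of the 2 anti-apoptotic genes was -3.25 ± 0.08 in control, -3.07 ± 0.32 in osimertinib, -2.44 ± 0.61 in thio and -2.54 ± 0.36 in the combination. All combination and thio libraries stood above all control libraries on this measure. Without BMF and BBC3 the same difference was -2.63 ± 0.13, -2.61 ± 0.23, -2.35 ± 0.43 and -2.33 ± 0.20, with overlap of control and both thio-treated arms. For the effectors minus the anti-apoptotic genes it was -3.82 ± 0.21 in control, -3.92 ± 0.23 in osimertinib, -4.11 ± 0.15 in thio and -4.13 ± 0.10 in the combination. The 2 arms with thio were thus close to each other on this measure. The genes of these means were chosen by function and differ in level, so each is a description with no test.

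**Figure D5:**
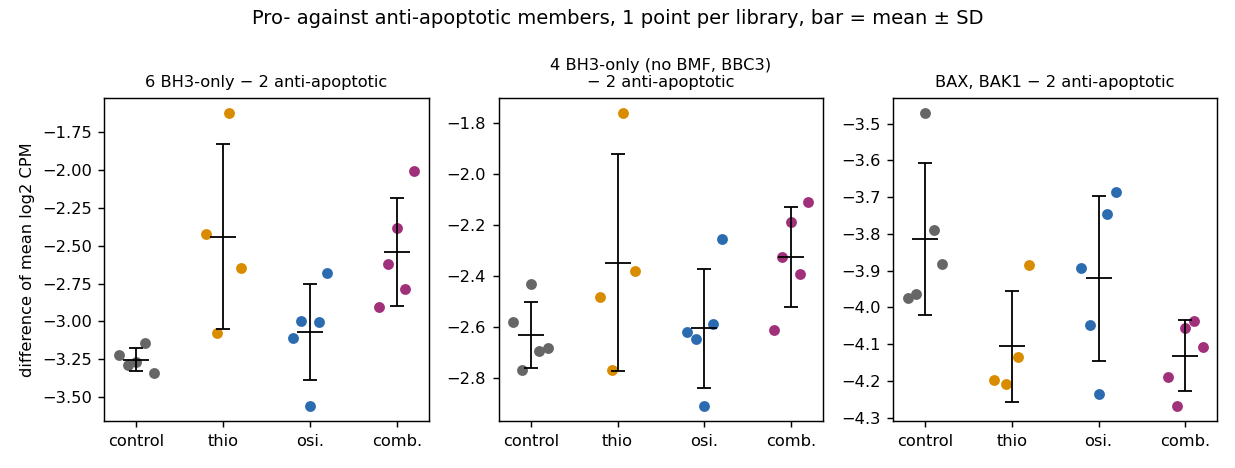
Difference of mean log2 CPM between pro-apoptotic classes and the 2 anti-apoptotic genes, 1 point per library, with mean ± SD by arm. The BH3-only difference is higher in all thio and combination libraries than in control (-3.25), and it overlaps with control once BMF and BBC3 are left out. The effector difference averages -4.13 in the combination and -4.11 in thio, below control (-3.82).

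Of 13 further genes of the family or named with it, 11 passed the filter. Under thio 4 rose, none fell and 7 did not pass, where 9.27% of all genes were higher and 4.63% lower. BCL2A1, an anti-apoptotic member that NF-kB induces, had 23.3, 3.28, 90.8 and 6.18 CPM in the thio libraries against 1.57 to 3.16 CPM in control, with thio 1 and thio 3 high as for BBC3. It rose by 3.88 ± 0.71 (adjusted p = 0.00223), and its interaction was -4.57 ± 1.01 (adjusted p = 0.0324), lost without any 1 of 10 libraries (control 3 and 5, thio 1 and 3, osimertinib 1 and 2, combination 2 to 5; highest adjusted p = 0.0768). The mitophagy receptors BNIP3 (1.49 ± 0.27, adjusted p = 0.00201) and BNIP3L (1.01 ± 0.21, adjusted p = 0.00529), which hypoxia induces, rose too, as did BCL2L15 (0.93 ± 0.15, adjusted p = 0.0013).

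Under the combination none of these 11 rose and 3 fell, where 25.7% of all genes were higher and 23.1% lower. BOK, a relative of BAX and BAK1, had 7.77, 5.78, 4.97, 9.91 and 4.08 CPM against 10.8 to 18.2 CPM in control (-1.03 ± 0.20, adjusted p = 0.000541). BCL2L13, a receptor of mitophagy, fell by 0.72 ± 0.17 on the log2 scale (adjusted p = 0.00175), and BCL2L12 had -0.57 ± 0.22 (adjusted p = 0.0358), lost without control 3, 4 or 5 or combination 3 or 5 (highest adjusted p = 0.119). Osimertinib called none of the 11. Nearest was HRK (-2.16 ± 0.63, adjusted p = 0.0573), with only 6 to 26 counts in control and 1 to 4 under osimertinib. Its libraries did not overlap there, as for 5.84% of all genes. It passed by DESeq2 (0.0326), by limma voom (0.0194), with the mitochondrial covariate (0.0489) and without thio 2, combination 1 or combination 5 (lowest adjusted p = 0.0379). BCL2 itself had 0 to 23 counts per library and did not pass the filter, nor did BCL2L10, so changes in them were not detectable at this depth.

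Downstream of the pore, of 16 caspase and apoptosome genes none was called under osimertinib, 2 were higher and 3 lower under thio and 3 were higher and 5 lower under the combination. The 8 called under the combination are close to the share of all genes called there (48.7%), and the 5 under thio stand beside 13.9%. DIABLO, whose protein leaves mitochondria to block inhibitors of apoptosis, rose under thio (0.88 ± 0.19, adjusted p = 0.00578) and the combination (1.00 ± 0.18, adjusted p = 0.000333). APAF1, the scaffold of the apoptosome, rose under thio (1.07 ± 0.24, adjusted p = 0.0066). It was also higher under the combination (0.61 ± 0.23, adjusted p = 0.0304), lost without control 3 or 5 or combination 3 or 5 (highest adjusted p = 0.0839). DFFA, which had the smallest p of the list under thio, and CASP6 were among the 3 genes lower under thio. Cytochrome c, CYCS, fell under the combination (-0.64 ± 0.13, adjusted p = 0.000654). The medians of the list were -0.08 and -0.18 under thio and the combination.

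Of 7 inhibitors of apoptosis 1 rose and 1 fell under thio, and 2 rose and 1 fell under the combination, beside the same 13.9% and 48.7% of all genes called. BIRC3, which is induced by NF-kB, rose under thio (2.11 ± 0.31, adjusted p = 0.000975). Of 9 tested death receptor genes 3 rose under thio (9.27% of all genes), led by the caspase-8 inhibitor CFLAR (0.66 ± 0.18, adjusted p = 0.0188, with no call when control 3 or thio 3 was left out, at most adjusted p = 0.121). FAS (0.94 ± 0.27, adjusted p = 0.0246, with no call when control 3, control 4 or thio 3 was left out, at most adjusted p = 0.251) was among them. Under the combination 1 rose and 3 fell (48.7% of all genes called), among them the adaptor FADD (-1.03 ± 0.21, adjusted p = 0.000838).

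Of 13 transcription factors known to act on BH3-only genes 5 rose and none fell under thio, where 9.27% of all genes were higher and 4.63% lower. FOXO3, which can induce BCL2L11 and BBC3, rose by 0.72 ± 0.16 (adjusted p = 0.00621), and DDIT3, the stress factor CHOP, by 1.25 ± 0.27 (adjusted p = 0.0065). Under the combination 4 fell (23.1% of all genes) and none rose (25.7%), with TP63 at -2.43 ± 0.38 (adjusted p = 0.00011). Under osimertinib, where 4.16% of all genes were called, TP63 was the 1 of the 13 called (-1.49 ± 0.37, adjusted p = 0.0281).

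Of 14 genes of ERK output, the pathway that acts on BIM below EGFR, none was called under osimertinib and the median was -0.04. Under the combination 1 rose and 6 fell, where 25.7% of all genes were higher and 23.1% lower. In both directions together this was 7 of 14, beside 48.7% of all genes called. The median of the list there was -0.35, beside 0.02 over all tested genes, and ETV4 had -0.77 ± 0.14 (adjusted p = 0.000273). Of 6 genes that control turnover of MCL1 and BIM, 2 were called under the combination (48.7% of all genes). FBXW7, a ubiquitin ligase subunit that targets MCL1, rose under the combination (0.57 ± 0.14, adjusted p = 0.00272) and USP9X, which removes ubiquitin from MCL1, had -0.40 ± 0.15 (adjusted p = 0.0299), lost without control 1 or 2 or combination 2, 3, 4 or 5 (highest adjusted p = 0.103). None of the 6 was called under thio or osimertinib. Of 7 mitochondrial membrane partners 3 fell under the combination (23.1% of all genes), led by the fusion protein MFN2 (-0.60 ± 0.12, adjusted p = 0.000679), and none was called under either single drug.

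The genes most like a member were found as those with the smallest root mean square difference in centred log2 CPM over the 19 libraries, among 11566 genes of mean log2 CPM of at least 2. For BBC3 they were NEURL3 (0.26), CFB (0.27) and TNFAIP3 (0.34), where the median gene differed from BBC3 by 1.20. For BMF they were ZNF292 (0.33), CFAP221 (0.37) and ABCA5 (0.39), with a median of 1.05. For BAK1 they were ATP6V1B2, RETREG2 and NUCB1 (0.15 each, median 0.57), and for BID they were DAPK3, FAM83G and IFNGR2 (0.20 to 0.21, median 0.57). For PMAIP1 they were USP12 (0.15), SERTAD2 (0.17) and SERINC1 (0.19), with a median of 0.48. Apart from the symbol with the same counts, those nearest to MCL1 were ASH2L (0.10) and RAB14 (0.11), with a median of 0.40. For BAX, SNRPE, COA4 and JPT1 differed by 0.10 to 0.11, where the median was 0.40.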

How the data were processed

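The 19 RNA-seq libraries of HCC827 xenograft tumours were built from poly-T selected mRNA, per the labels' protocols. The kit keeps no strand information, so reads of sense and antisense partners cannot be told apart by strand. Why MCL1 and ADAMTSL4-AS1 hold the same counts was not tested. Per the submitters' processing notes reads went through FastQC, Trimmomatic and STAR, with hg38 as the build. Tool versions, the counting tool, the gene annotation and the handling of host reads: not given in the sources used here. Raw counts were deposited by the authors per gene symbol, with no normalization. The labels give the mouse as organism, while the symbols are human.

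Groups followed the treatment label. Replicate numbers are in deposition order and pair no samples. The 10 members, the gene lists and the alternatives were chosen with earlier results of these data known.

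The counts were fitted with edgeR 4.0.16 (R 4.3.3). Its filterByExpr by group (minimum count 10, total 15) kept 16704 genes, at least 99.8% of each library's counts. TMM scaling and 1 quasi-likelihood fit over all 19 libraries gave 5 pairwise contrasts and the interaction. P values were adjusted by Benjamini-Hochberg over all tested genes and called under 0.05. Log2 fold changes carry the fit's SE, with a prior count of 2 for log2 CPM. Recovery of known changes was tested on simulated data. The floor of 3 counts is 0.0848 to 0.169 CPM per library and covers counting error only. Alternatives were DESeq2 1.42.0, limma 3.58.1 voom with quality weights, scaling by RLE or upper quartile, a filter needing CPM 1 in at least 4 libraries, no filter, each pair of groups alone, removal or a covariate of the 13 mitochondrial genes, and leaving out libraries. Named genes were all members, up to 4 called genes of smallest p of each list, and the 3 genes most like each member called in at least 2 pairwise contrasts. Some results are not reported here. Figures used Python 3.11.15 and matplotlib 3.10.9.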

Additional observations from a re-analysis of the deposited data

Results flagged for a closer look

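In the interaction of osimertinib and thio BBC3 had -2.56 ± 0.64 log2 (adjusted p = 0.0405). The call was lost without any 1 of 12 of the 19 libraries, by limma voom (0.0579), with the mitochondrial covariate (0.230) and without combination 3, combination 5 and thio 3 together (0.254), and 2 of the 4 thio libraries were high. Among 40 combinations of a member and an arm, 5 held a library far from the rest of its arm by Dixon's criterion, and chance gives about 1 in 20. PMAIP1 was high in thio 3 (125 CPM) and BMF low in control 3 (6.47 CPM). BIK was low in osimertinib 3 (18.6 CPM), BAX in combination 5 (11.6 CPM) and BAK1 in thio 2 (9.04 CPM).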

How the results depend on the processing

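No paired analysis was possible because the labels give no replicate numbers that the groups share. Counts of members called held within 1.5 times under the alternatives except as follows. Against control, osimertinib had 0 members called, 1 by DESeq2, with no filter, from the 2 groups alone or without combination 3, combination 5 and thio 3 together, and 2 by limma voom. Without single libraries it had 0 to 1. Thio had 4, but 2 from the 2 groups alone or without those 3 libraries, and 2 to 5 without single libraries. The combination had 5, and 1 with the mitochondrial percent as covariate. Against osimertinib the combination had 3, but 5 by limma voom, 1 with no filter or from the 2 groups alone, 0 with the covariate or without the 3 libraries, and 0 to 4 without single libraries. Against thio it had 5, but 0 with the covariate and 2 without the 3 libraries. The interaction had 1, but 0 by limma voom, with the covariate or without the 3 libraries, and 0 to 2 without single libraries. The causes were not tested.

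Over all genes 695 were called under osimertinib (217 to 1528 over the alternatives), 2322 under thio (736 to 3516) and 8139 under the combination (542 to 9859). Between the combination and osimertinib there were 2632 (3 to 5327), between it and thio 7378 (191 to 8559), and 576 for the interaction (0 to 2802). Upper-quartile scaling moved the median log2 fold change of all genes by 0.11 in the combination against control, 0.18 against thio and 0.14 in the interaction. It moved the share of calls that were higher from 66.7 to 55.6% under thio, 52.7 to 63.4% under the combination, 51.4 to 64.8% for the combination against osimertinib, 48.1 to 65.5% against thio and 35.9 to 57.3% for the interaction.

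Sign changes were seen in values that missed the threshold both ways. Without the 3 libraries, thio against control gave BIK -0.020 and BID -0.062, the combination gave PMAIP1 0.042 against osimertinib and BIK 0.15 against thio, and the interaction gave BAX 0.075. With the covariate the combination gave BCL2L1 0.30 against control, 0.10 against osimertinib and 0.16 against thio, PMAIP1 0.27 against osimertinib and BMF -0.46 against thio, and the interaction gave BAX 0.066 and MCL1 0.031. Upper-quartile scaling gave BBC3 0.039 (combination against control), BIK 0.12 (against thio) and BAX 0.12 (interaction). Limma voom gave BBC3 -0.086 against osimertinib, BIK 0.079 against thio and BAX 0.012 in the interaction. No filter gave PMAIP1 -0.013 in the combination against control. BAX in the interaction was 0.0058 with RLE, 0.0080 by DESeq2 and 0.0014 with the stricter filter.

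Leaving out single libraries gave these ranges around 0. Under osimertinib they were -0.16 to 0.00072 for BCL2L11, -0.011 to 0.23 for PMAIP1, -0.011 to 0.17 for BAX and -0.077 to 0.14 for BCL2L1. Under thio they were -0.013 to 0.22 for BIK, -0.055 to 0.59 for BID and -0.085 to 0.011 for BAK1. Under the combination they were -0.19 to 0.11 for BBC3, -0.056 to 0.13 for PMAIP1 and -0.0017 to 0.14 for BIK. The combination had -0.20 to 0.040 for PMAIP1 against osimertinib, and -0.16 to 0.074 for BIK and -0.0033 to 0.10 for BAX against thio. The interaction had -0.0068 to 0.24 for BIK and -0.13 to 0.056 for BAX. Depth limits BCL2 and BCL2L10.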
